A study of Rattus norvegicus with 36 samples.

Results

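The molecular chaperone genes Hspb1, Cryab, Hspa8 and Hspa5 were followed by RNA-seq in dorsal striatum from male Sprague-Dawley rats aged 8 weeks. These 4 genes are 4 of the 32402 Ensembl gene IDs in the count files, and each was found by its ID, with the symbol given for that ID when the set was chosen. They are ENSRNOG00000023546 (Hspb1), ENSRNOG00000010524 (Cryab), ENSRNOG00000034066 (Hspa8) and ENSRNOG00000018294 (Hspa5). The Sal–Sal rats received saline 15 times. By the labels, the Sal–Coc rats received it 13 times and were then given cocaine 3 times, while Coc–Coc animals were given cocaine 15 times. The labels thus give the Sal–Coc rats 1 injection more than the other groups. The paper describes the same daily schedule of injections for every group, so labels and paper differ here. Injections were given as a daily binge of several on successive days, and the Sal–Coc rats received cocaine on the last of these days. Tissue was taken a day after the last injection. All groups therefore share the repeated injection and handling, and no group was left without injections. RNA was pooled from the tissue of a pair of rats, which gave 3 pools per group with the numbers 5, 6 and 7, and 4 technical replicates were read from each of the 9 pools.

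Chaperones bind unfolded or partly folded proteins and keep them from clumping or help them to fold. Hspb1 and Cryab are small heat shock proteins, which hold damaged proteins without using ATP, whereas Hspa8 and Hspa5 are HSP70 proteins that fold their clients in cycles of ATP hydrolysis, the former in the cytosol and the latter in the endoplasmic reticulum (ER). Under stress of the cytosol, heat shock factor binds heat shock elements in the promoters of many chaperone genes, while misfolded protein in the ER activates factors that bind the ER stress response element. In brain, Cryab is known as an abundant transcript of oligodendrocytes, Hspb1 is known from glia and vessels and after injury, and Hspa8 and Hspa5 are made in nearly all cells.

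Total counts per pool ran from 29870775 to 39493867, so that a floor of 3 counts corresponded to between 0.076 and 0.1 CPM (counts scaled to the size of the library). All 4 genes were far above this floor in every pool and were among the 15884 genes kept by the filter on low counts. Pool 5 of the Coc–Coc group stood apart from the rest, in that 624 genes lay 2-fold or more away from their median over the remaining pools, where the other 8 had 129 to 263 such genes. Fold changes and overlaps of the Coc–Coc group are given with and without it. The files pair no names with IDs, so the labelled tissue was not checked against marker genes. The 4 genes were picked with their levels in all 3 groups known, so their differences between groups are described here with their errors and carry no test. In bulk tissue, fewer cells of a type and less RNA per cell cannot be told apart.

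Hspb1 was the gene of the set with the widest difference between groups. Its level was 4.22, 8.04 and 5.28 CPM in pools 5, 6 and 7 of Sal–Sal. The Sal–Coc pools stood at 1.89, 2.14 and 1.68 CPM and the Coc–Coc pools at 2.36, 1.93 and 1.43 CPM. The saline pools were thus the highest, and no cocaine pool reached the lowest of them.

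On average, Hspb1 reached 5.85 ± 1.97 CPM (SD, n = 3) without cocaine, 1.9 ± 0.233 CPM (SD, n = 3) with cocaine on the last day and 1.91 ± 0.463 CPM (SD, n = 3) with cocaine throughout. Relative to Sal–Sal, its log2 fold change was −1.62 ± 0.27 (SE) for Sal–Coc, a level of 32.6%, and −1.6 ± 0.26 (SE) for Coc–Coc, a level of 33%. Sal–Coc and Coc–Coc differed by 0.02 ± 0.31 (SE) on the log2 scale, and their pools overlapped. Of the order of groups, only the place of Sal–Sal at the top lay beyond the spread of the pools. The fold over single pairs of pools varied widely: a Sal–Coc pool had between 0.208 and 0.508 times the level of a Sal–Sal pool, and a Coc–Coc pool between 0.178 and 0.56 times.

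Part of this range came from pool 6 of Sal–Sal, the highest of the 9 pools for Hspb1. Leaving it out gave log2 fold changes of −1.32 for Sal–Coc and −1.3 for Coc–Coc against the saline group. Leaving out pool 5 of Coc–Coc gave −1.79 for that group against saline and −0.17 against Sal–Coc, with the overlaps as before. Hspb1 was a low transcript, with 138 to 279 counts per pool in Sal–Sal, 55 to 80 in Sal–Coc and 48 to 96 in Coc–Coc. Counting error alone amounts to between 5.99% and 14.4% of a pool's value at these counts. The pools of Sal–Sal varied by 33.7% (coefficient of variation) where counting alone gives 7.01%. Those of Sal–Coc varied by 12.3% where counting gives 12.4%, and those of Coc–Coc by 24.3% where counting gives 11.8%. Single technical replicates, which are repeat reads and not further samples, were apart as well. The 12 of Sal–Sal had 3.68 to 8.93 CPM by library totals alone, and those of Sal–Coc and Coc–Coc 1.19 to 2.39 and 1.18 to 2.6 CPM.

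**Figure D1:**
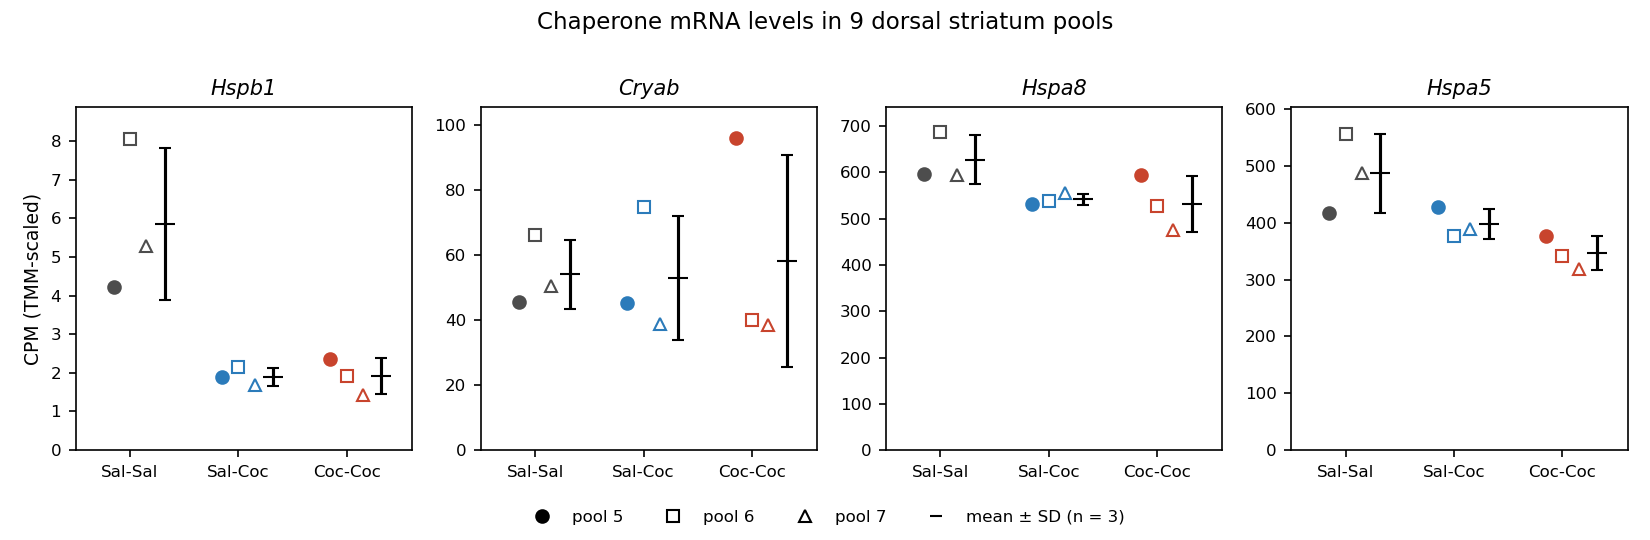
Level of each chaperone gene in TMM-scaled CPM (linear axis from 0) in the 9 pools, with a symbol for each pool number and the mean ± SD of the 3 pools beside them. The cocaine pools of Hspb1 lie at 2.36 CPM or lower and its saline pools at 4.22 CPM or higher, while Cryab reaches 95.9 CPM in pool 5 of Coc-Coc.

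The promoter of Hspb1 is shown because heat shock factor is a known regulator of this gene. It is the stretch of 250 bases before the annotated start, at chr12:26432302-26432551 on the minus strand of GRCr8, from RefSeq, written 5′ to 3′ along the gene. The table at hand matched 3 of the 4 symbols, with no entry for Cryab, and its build is not that of the count files. Capitals mark matches to the letters of a heat shock element, GAANNTTC or TTCNNGAA, which read the same on both strands.
Hspb1: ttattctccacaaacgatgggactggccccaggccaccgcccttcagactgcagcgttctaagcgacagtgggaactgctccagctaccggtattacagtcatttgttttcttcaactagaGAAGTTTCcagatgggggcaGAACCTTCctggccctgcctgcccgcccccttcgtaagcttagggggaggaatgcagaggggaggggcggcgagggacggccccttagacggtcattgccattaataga
The window held 2 matches, both GAANNTTC, which began 129 and 109 bases before the start. Of the 33469 promoter windows of this length in the table, 7.23% held GAANNTTC and 13.5% held either order.

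Cryab, the other small heat shock protein, did not share the pattern of Hspb1. It stood at 45.4, 66 and 50.5 CPM in pools 5, 6 and 7 of Sal–Sal. The Sal–Coc pools had 45.2, 74.7 and 38.9 CPM, and the Coc–Coc pools 95.9, 40 and 38.5 CPM. The groups overlapped over all pools, with 1 pool in each above the other two.

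On average, Cryab reached 54 ± 10.7 CPM (SD, n = 3) without cocaine, 52.9 ± 19.1 CPM (SD, n = 3) with cocaine on the last day and 58.1 ± 32.7 CPM (SD, n = 3) with cocaine throughout. Against Sal–Sal its log2 fold change was −0.03 ± 0.35 (SE) for Sal–Coc and 0.11 ± 0.35 (SE) for Coc–Coc, and between the cocaine groups it was 0.14 ± 0.35 (SE), each smaller than its error. The direction depended on single pools. Without pool 5 of Coc–Coc the mean of that group was 39.2 CPM over 2 pools, and the log2 fold change was −0.46 against Sal–Sal and −0.43 against Sal–Coc. The Coc–Coc pools then lay below all Sal–Sal pools, by 5.39 CPM, and still overlapped with Sal–Coc. Without pool 6 of Sal–Coc, that of Sal–Coc vs. Sal–Sal was −0.37, and those groups no longer overlapped. Their nearest pools were almost level, at 45.2 CPM in Sal–Coc and 45.4 CPM in Sal–Sal, with counting errors of 2.76% and 2.59%.

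Cryab had 1287 to 3899 counts per pool, and its pools varied by 19.8%, 36.1% and 56.3% (coefficient of variation) in Sal–Sal, Sal–Coc and Coc–Coc, where counting alone gives 2.12% to 2.34%. The part of dissection or cell makeup in this spread was not tested. Its biological coefficient of variation was 29.9%, higher than that of 94.8% of genes. For Hspb1 it was 22.5%, against 8.98% for Hspa8 and 10.2% for Hspa5, and 13.1% in common over all genes. By this measure, fitted over all groups at once, both small heat shock protein genes varied more between pools than either HSP70 gene. This need not hold in every group, as the Sal–Coc pools of Hspb1 varied by 12.3% where counting alone gives 12.4%.

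Hspa8 encodes the constitutive HSP70 of the cytosol, which also strips clathrin from endocytosed vesicles. Its level was 597.3, 687.9 and 595.3 CPM in pools 5, 6 and 7 of Sal–Sal. The Sal–Coc pools held 531.8, 538.8 and 554.4 CPM, and the Coc–Coc pools 594.8, 527.3 and 475.3 CPM. The cocaine pools all lay below the saline pools, in Coc–Coc by a margin of 0.481 CPM that was set by pool 5 and was 68 CPM without it.

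On average, Hspa8 reached 627 ± 52.9 CPM (SD, n = 3) without cocaine, 542 ± 11.6 CPM (SD, n = 3) with cocaine on the last day and 532 ± 59.9 CPM (SD, n = 3) with cocaine throughout. Its level was 86.4% of Sal–Sal for Sal–Coc, a log2 fold change of −0.21 ± 0.10 (SE), and 84.9% for Coc–Coc, at −0.24 ± 0.10 (SE). The cocaine groups differed by −0.02 ± 0.10 (SE) and overlapped. Without pool 5 of Coc–Coc, the log2 fold change of that group was −0.32 against Sal–Sal and −0.11 against Sal–Coc, and it no longer overlapped with Sal–Coc, by 4.55 CPM. With library totals alone in place of TMM scaling, pool 5 of Coc–Coc had 612.4 CPM and pool 5 of Sal–Sal 606.5 CPM, so the Coc–Coc and Sal–Sal pools then overlapped. Without pool 6 of Sal–Sal the log2 fold changes were −0.14 and −0.16. The authors dropped reads with several alignments, so reads of Hspa8 that match a processed copy of the gene elsewhere in the genome would not be counted.

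The promoter of Hspa8 is shown for comparison with that of Hspb1, with capitals for the same letters. It is the stretch of 250 bases before the start, at chr8:50080264-50080513 on the plus strand of GRCr8.
Hspa8: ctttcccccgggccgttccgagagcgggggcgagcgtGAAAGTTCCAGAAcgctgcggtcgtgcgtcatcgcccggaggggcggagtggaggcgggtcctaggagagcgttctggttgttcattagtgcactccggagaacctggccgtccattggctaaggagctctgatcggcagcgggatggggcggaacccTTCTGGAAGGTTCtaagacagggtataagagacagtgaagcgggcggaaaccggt
It held 4 matches, in 2 overlapping pairs that began 213 and 55 bases before the start. Each pair joins 3 alternating units, as GAANNTTCNNGAA in the distal and TTCNNGAANNTTC in the proximal one, and 0.663% of promoter windows held such a run in either order. The promoter of Hspb1 held none.

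Hspa5, also known as BiP or GRP78, is the main HSP70 of the ER and binds its stress sensors. Its level was 417.9, 556.9 and 487.4 CPM in pools 5, 6 and 7 of Sal–Sal. The Sal–Coc values were 427.8, 376.3 and 388.8 CPM, and the Coc–Coc values 377.5, 341.8 and 318.2 CPM. Every Coc–Coc pool lay below every Sal–Sal pool, whereas pool 5 of Sal–Coc lay above pool 5 of Sal–Sal.

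On average, Hspa5 reached 487 ± 69.5 CPM (SD, n = 3) without cocaine, 398 ± 26.9 CPM (SD, n = 3) with cocaine on the last day and 346 ± 29.9 CPM (SD, n = 3) with cocaine throughout. The log2 fold change from saline was −0.29 ± 0.11 (SE) for Sal–Coc, or 81.6%, and −0.5 ± 0.11 (SE) for Coc–Coc, or 71%. Between the cocaine groups it was −0.2 ± 0.11 (SE), Coc–Coc being lower. The highest Coc–Coc pool, at 377.5 CPM, was level with the lowest Sal–Coc pool, at 376.3 CPM, and with RLE or upper-quartile scaling these groups no longer overlapped. With library totals alone, Sal–Coc no longer overlapped with Sal–Sal. In the order of means, from Sal–Sal through Sal–Coc to Coc–Coc, neighbouring groups overlapped in their pools and only the ends were apart. The overlap of Coc–Coc with Sal–Coc was lost without pool 5 or pool 6 of Coc–Coc or pool 6 of Sal–Coc, and that of Sal–Coc with Sal–Sal without pool 5 of either. Without pool 5 of Coc–Coc, the log2 fold change of Coc–Coc was −0.56 against Sal–Sal and −0.27 against Sal–Coc. Hspa5 was the single gene of the set whose mean was lower after repeated cocaine than after 1 day of it by more than the standard error in this fit. Without pool 6 of Sal–Sal its log2 fold changes against Sal–Sal were −0.19 in Sal–Coc and −0.39 in Coc–Coc.

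The promoter of Hspa5 is shown because it holds an exact match to an element of the kind through which ER stress is known to act on this gene. Near matches were not searched. It is the stretch of 250 bases before the start, at chr3:38452766-38453015 on the plus strand of GRCr8, and capitals mark the match to the ER stress response element, which is CCAAT and CCACG with 9 bases between them, searched on both strands.
Hspa5: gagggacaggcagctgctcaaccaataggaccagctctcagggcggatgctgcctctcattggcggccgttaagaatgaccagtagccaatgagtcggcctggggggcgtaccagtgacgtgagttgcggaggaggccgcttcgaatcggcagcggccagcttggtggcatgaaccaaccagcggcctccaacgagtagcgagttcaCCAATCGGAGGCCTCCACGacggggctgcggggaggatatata
The match began 43 bases before the start, and 0.0657% of promoter windows held these letters on either strand. The window held 0 heat shock elements, and the promoters of Hspb1 and Hspa8 held no ER stress response element. The letters TGACG, the core of sites for ATF and CREB factors, were found in Hspa8 and Hspa5 and in 18.2% of windows, and CCACG was found in Hspa5, inside the longer match, and in 27.2%. None of these 3 windows held the exact letters TATAAA, which were found in 12.9% of windows. Variants of these letters, and bases past the start, were not searched.

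In Sal–Coc vs. Sal–Sal, which asks what 1 day of cocaine did, the pools of 2 of the 4 genes, Hspb1 and Hspa8, were all lower without overlap, where 9.51% of the 15884 genes were lower in this way. In Coc–Coc vs. Sal–Sal, which addresses repeated cocaine, it was 3 of 4, with Hspa5 added, where 6.06% of genes were. In Coc–Coc vs. Sal–Coc, which asks what repeated exposure added, it was 0 of 4, where 5.55% of genes were. Pool 5 of Coc–Coc decided part of these counts. Without it, 4 of 4 were lower than Sal–Sal without overlap, where 11.2% of genes were, and 2 of 4, Hspa8 and Hspa5, were lower than Sal–Coc, where 10.2% were. In the other direction, 0 of 4 were higher without overlap in each comparison, where 8.87% of genes were for a single day of cocaine, 6.5% for repeated cocaine and 5.08% between the cocaine groups. Both comparisons against saline use the same Sal–Sal pools. The 6 cocaine pools were below all 3 saline pools for Hspb1 and Hspa8, as they were for 2.68% of genes. For Hspa8 the nearest pools were 594.8 CPM in Coc–Coc, with a counting error of 0.643%, and 595.3 CPM in Sal–Sal. With library totals alone, its Coc–Coc and Sal–Sal pools overlapped. Since the set was chosen from these contrasts, the shares are background and nothing is read from them.

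Against the genes at large, the log2 fold change lay between −0.45 and 0.32 for the middle 90% in Sal–Coc vs. Sal–Sal and between −0.35 and 0.41 in Coc–Coc vs. Sal–Sal. Hspb1 was far outside these ranges, with 0.176% and 0.063% of genes lower still. Hspa5 was inside the first range and outside the second, with 9.46% and 2.35% of genes lower. Hspa8 lay inside both, with 13.8% and 9.3% of genes lower, and Cryab near the middle, with 40% and 73.2%. As the set was picked from these contrasts, these places are a description and carry no test. The ranges cover genes of all levels, and 87.8% of genes had a lower biological coefficient of variation than Hspb1. The median gene stood at 0.011 and 0.013, near 0 as TMM scaling makes it.

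**Figure D2:**
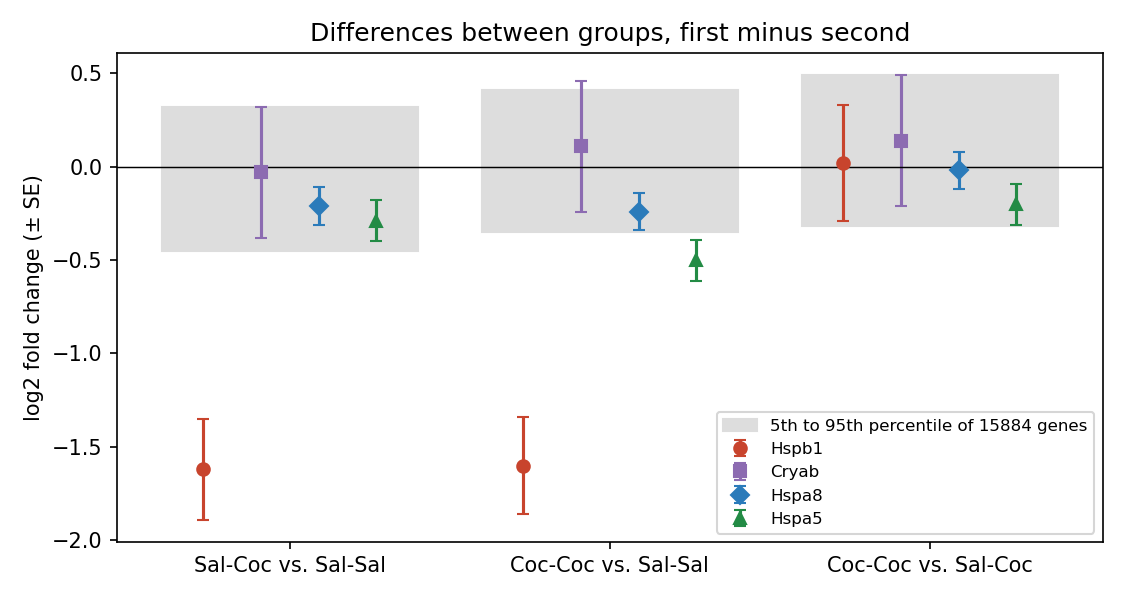
Log2 fold change of each gene (± SE of the fit to 9 pools) in the 3 comparisons, with the 5th to 95th percentile of 15884 genes in grey. Hspb1 lies at −1.62 and −1.6 against Sal-Sal and at 0.02 between the cocaine groups, and Hspa5 is below the grey band at −0.5 for repeated cocaine.

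The genes shared a full order of pools in Coc–Coc only. In Sal–Sal, pool 6 was the highest for all 4 genes, as it was for 35.8% of genes, but the lowest was pool 7 for Hspa8 and pool 5 for the other genes. In Coc–Coc, pool 5 was the highest and pool 7 the lowest for all 4, an order found for 20.9% of genes. In Sal–Coc, pool 6 was the highest for Hspb1 and Cryab, pool 7 for Hspa8 and pool 5 for Hspa5.

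Over the 9 pools, log2 CPM of Hspb1 correlated with that of Hspa8 and of Hspa5 at r = 0.89 each, and Hspa8 with Hspa5 at r = 0.86. Cryab correlated at r = 0.31 with Hspb1, 0.5 with Hspa8 and 0.26 with Hspa5. Without pool 5 of Coc–Coc the values for Cryab were 0.53, 0.52 and 0.52. With the group means taken out, the correlation with Hspb1 was 0.84 for Hspa8, 0.84 for Hspa5 and 0.75 for Cryab, and without pool 5 of Coc–Coc it was 0.82, 0.8 and 0.71. Cryab with Hspa8 went from 0.71 to 0.34 and Cryab with Hspa5 from 0.48 to 0.24 when that pool was left out. These are descriptions over pools that share their libraries and scaling, and the first of them also carry the differences between groups for which the genes were picked.

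**Figure D3:**
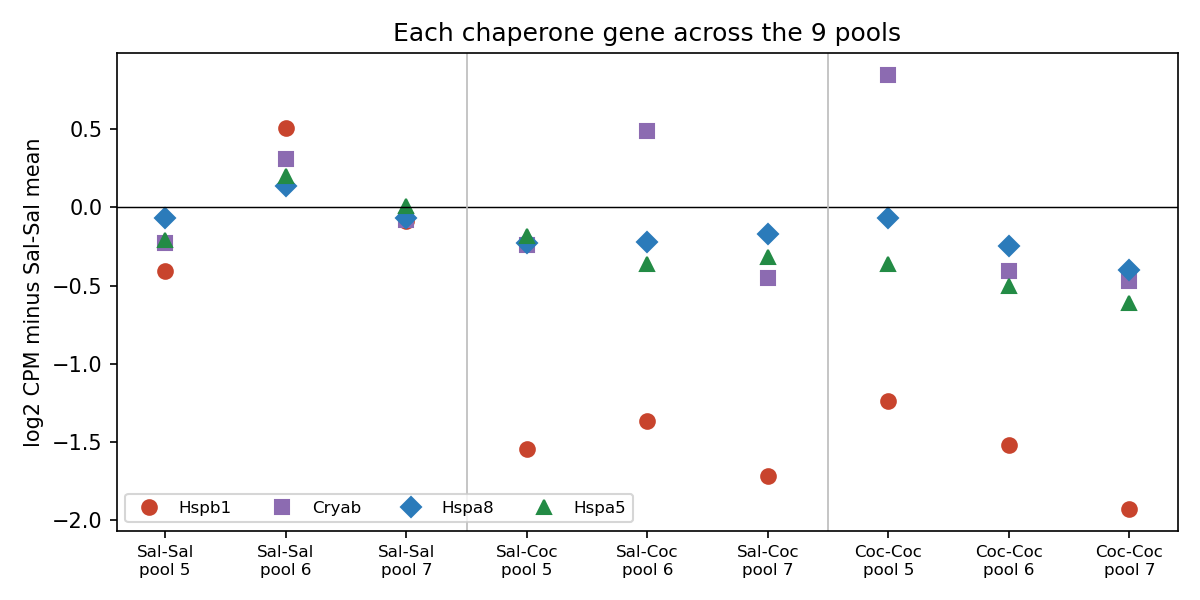
Log2 CPM of each gene in each of the 9 pools, minus the mean of its Sal-Sal pools. Hspb1 lies between −1.93 and −1.24 in all 6 cocaine pools, Hspa8 and Hspa5 between −0.61 and −0.07, and Cryab spreads from −0.47 to 0.85.

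Counts of genes in the same pool can be set against each other without any scaling of libraries. Per 1000 counts of Hspa8, Hspb1 had 7.06, 11.7 and 8.87 counts in the Sal–Sal pools 5, 6 and 7. The Sal–Coc pools had 3.55, 3.97 and 3.02 such counts and the Coc–Coc pools 3.97, 3.66 and 3.02. The saline pools were apart in this ratio, with means of 9.21 ± 2.33, 3.51 ± 0.477 and 3.55 ± 0.485 (SD, n = 3 each) for Sal–Sal, Sal–Coc and Coc–Coc. Hspb1 was thus lower relative to Hspa8. The ratio reuses the counts of 2 genes picked from these contrasts, so it describes the same difference and is no separate support. Hspa5 had 700, 810 and 819 counts per 1000 of Hspa8 in Sal–Sal, 804, 698 and 701 in Sal–Coc and 635, 648 and 669 in Coc–Coc. By this measure the Coc–Coc pools were below all 6 others, and those of Sal–Sal and Sal–Coc overlapped. Cryab had 76 to 95.9 counts per 1000 of Hspa8 in Sal–Sal, 70.2 to 139 in Sal–Coc and 75.9 to 161 in Coc–Coc. Transcript lengths were not used here, so these ratios compare pools and not the abundance of the genes.

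**Figure D4:**
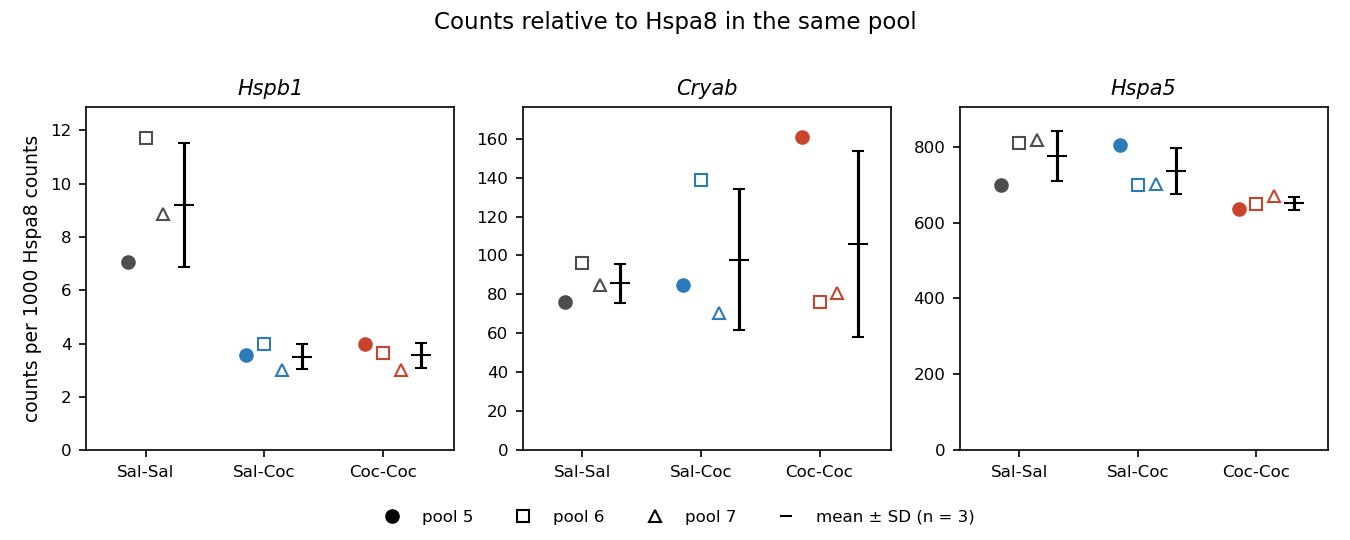
Counts of Hspb1, Cryab and Hspa5 per 1000 counts of Hspa8 in the same pool (linear axes from 0), with the mean ± SD of 3 pools. The Hspb1 ratio is 7.06 or more in the saline pools and 3.97 or less in the cocaine pools, and the Hspa5 ratio is 669 or less in the Coc-Coc pools.

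Repeat reads of the same pool differed by about as much as sampling gives. The chi-square value over its degrees of freedom, which is 1 on average for sampling alone, had a median of 0.814 over the 36 combinations of gene and pool and reached 3.1 for Hspa5 in pool 5 of Sal–Sal. Between pools, Hspa8 varied by 8.44%, 2.13% and 11.3% and Hspa5 by 14.3%, 6.75% and 8.64% in Sal–Sal, Sal–Coc and Coc–Coc, where counting alone gives at most 0.878%.

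Among the 13980 other genes with a mean of at least 1 CPM, the gene most like Hspb1 over the 9 pools was ENSRNOG00000054625, at r = 0.96. It stood at 10.7 ± 0.951 CPM for Sal–Sal, against 6.46 ± 0.34 CPM for Sal–Coc and 7.22 ± 0.969 CPM for Coc–Coc (SD, n = 3). The gene most like Hspa5 was ENSRNOG00000057319, also at r = 0.96, with 11.5 ± 0.537, 10.4 ± 0.263 and 9.7 ± 0.312 CPM in the same order. These genes were found by their likeness over all pools, differences between groups included, so their group means follow from the search and carry no test. No member was among the 5 genes most like another member.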

How the data were processed

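Poly(A) RNA of the dorsal striatum was read as stranded single-read libraries. Per their methods the authors trimmed and filtered reads, aligned them to the Ensembl rat genome with STAR and removed reads that mapped more than once, and the submitters' processing notes also name HTSeq 0.5.3. The deposited files hold raw counts per Ensembl gene, not normalized.

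The members and gene lists were chosen with earlier results of these data known. Counts of the 4 technical replicates were summed per pool. In R 4.3.3, genes were kept by filterByExpr of edgeR 4.0.16 (minimum count 10, minimum total 15) and scaled by TMM factors from 0.961 to 1.04. All 9 pools entered 1 quasi-likelihood fit with a mean per group, and this fit gave log2 fold changes and their SE. The threshold for calls over all genes was a Benjamini-Hochberg adjusted p-value of 0.05. CPM use effective library sizes, and log2 CPM a prior count of 2. DESeq2 1.42.0 and other scalings, filters and subsets of pools were alternatives. Counting errors and floors cover counting error only, whereas SDs and SEs include the variation between pools.

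Genes were to be named if they were members, if they belonged to fixed lists of chaperones, ER folding and degradation genes, unfolded protein response genes or cell type markers, or if they were most like a member. The RefSeq table at hand, of GRCr8, matched 0 of 32402 IDs, so no list was counted or tested. The 2 other IDs given were selected from the most alike genes after their values were seen. Pools of a group came from different rats.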

Additional observations from a re-analysis of the deposited data

How the results depend on the processing

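The 6 log2 fold changes of Hspb1, Hspa8 and Hspa5 against Sal–Sal were below 0 in all 108 values, 18 alternatives each, and moved by less than the SD between pools. These alternatives refit the same pools, and some leave out only a pool of the group not compared. The genes were also picked from these contrasts, so the shared sign shows stability to processing and is no further support. Leaving out each pool in turn gave −1.8 to −1.32 and −1.79 to −1.3 for Hspb1 in Sal–Coc and Coc–Coc. Cryab kept its side of 0 in 14 of 18 alternatives for Sal–Coc against saline and in 16 of 18 between the cocaine groups. For Coc–Coc against saline it crossed 0 only without pool 5 of Coc–Coc, and rounded to 0 without pool 5 of Sal–Sal. Its largest turn against Sal–Sal was to −0.46, for Coc–Coc without its pool 5, in a leave-one-out range up to 0.33, and the cause was not tested. The setting with library totals alone was added after seeing the data.

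The quasi-likelihood test of edgeR called 0 genes of the whole table in each of the 3 comparisons, with 1270, 1146 and 1116 at an unadjusted p-value under 0.05. DESeq2 called 59, 24 and 2. For Coc–Coc vs. Sal–Sal, leaving out each pool gave 0 to 6 calls (4 without pool 5 and 6 without pool 6 of Coc–Coc) and library totals alone gave 1, while both gave 0 for the other comparisons. A replicate block for pool number left 0 calls everywhere (1134, 1101 and 1096 at an unadjusted p-value under 0.05), and Hspb1 was at −1.61 and −1.59 against Sal–Sal. The deviations of same-numbered pools from their group means correlated across genes at −0.193 to 0.156, with 1 of 9 pairs over 0.1. Whether pools of a number share a batch was not tested by this. The share of genes whose pools did not overlap, in either direction, was 18.4%, 12.6% and 10.6%. Leaving out each pool gave 18.2% to 34.8%, 12.5% to 25.2% and 10.6% to 25.8%, since fewer pools overlap less often. The counts and tests of the gene lists were not run, because no ID was matched to a name.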
